A study of Mus musculus with 6 samples.

Results

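The genes of the BMP, TGF-beta and Nodal pathways were followed across mouse induced pluripotent stem (iPS) cells, iPS cells in cardiac differentiation and heart-derived cells. Members were all genes whose symbol in the platform annotation named a BMP, GDF, TGF-beta, activin or inhibin subunit, Nodal or Lefty, a receptor or Smad of the family, an Id gene, or an antagonist such as Nog, Chrd, Fst and Grem1. The rule used names and no expression values, and it found 58 of the 22180 genes measured. The arrays were Affymetrix Mouse Gene 2.0 ST, with 6 libraries, 1 per group, all labelled strain DBA/2J and female. The iPS group was undifferentiated. The DMSO, NRG-1 and combined groups were iPS cells at day 7 of differentiation, grown in suspension for 5 days as embryoid bodies (EBs, cell aggregates) and then plated with 1% DMSO, 100 ng/ml NRG-1, or both. DMSO (dimethyl sulfoxide) is a solvent that can itself trigger differentiation, and NRG-1 (neuregulin 1) activates the ERBB family of receptor kinases. The last groups were labelled as cardiomyocytes (CMs) from neonatal and from adult mouse heart, with no age given. No culture without DMSO and NRG-1 was among the groups, so a difference between a culture and iPS cells covers differentiation and treatment together.

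BMPs, GDFs, TGF-betas, activins and Nodal are secreted dimers that bring together type I and type II receptor kinases. The type I receptor then phosphorylates receptor-regulated Smads, which join Smad4 and act on genes in the nucleus. BMP receptors use Smad1, Smad5 and Smad9 and switch on the Id genes, whereas TGF-beta, activin and Nodal receptors use Smad2 and Smad3. In the embryo, Nodal patterns the early germ layers and BMPs are needed for heart-forming mesoderm, and in the adult heart TGF-beta is known for its action on fibroblasts and matrix.

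The labels were checked against other genes. The library labelled adult cardiomyocytes had the Y-linked Eif2s3y at 8.15 and the X-inactivation RNA Xist at 3.39, and the neonatal one had them at 6.20 and 8.78, so both go against their labels as female. In the 4 other libraries Eif2s3y was at most 3.32. The mean level of 8 cardiomyocyte markers was 6.70 in the neonatal and 5.64 in the adult library, against 5.78 in iPS cells and 6.76 to 7.33 in the cultures. In the neonatal and adult libraries the heart myosin Myh6 was 6.47 and 5.05, against 5.82 in iPS cells, while cardiac troponin T (Tnnt2) was 9.76 and 8.22, against 6.35. The mean of 6 fibroblast markers was 11.0 in the neonatal and 11.6 in the adult library, 8.87 to 9.43 in the cultures and 7.01 in iPS cells, with 6 of 6 reaching the median of all values (5.20) in every library. The mean of 4 yolk sac endoderm markers was 9.21 to 9.74 in the cultures and 5.14 to 5.29 elsewhere. That of 5 epithelial markers was 10.8 to 10.9 in the cultures, 7.75 in iPS cells, 7.07 in the neonatal and 5.64 in the adult library. In bulk RNA such as this, fewer cells of a type and less RNA per cell cannot be told apart, and the part of cell makeup in the results below was not tested.

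All levels are log2 values, so a difference of 1 is 2-fold, and a level is compared only with the same gene in another library. With 1 library per group nothing was tested and no difference has a replicate check. The only error measure was the disagreement between 2 probe sets of 1 gene. Its SD was divided by the square root of 2 to give an error per probe set. That error was 0.553 to 0.601 for differences from iPS cells, 0.345 between the heart-derived libraries and 0.197 to 0.305 among the cultures. Of the 58 members, 49 reached the median of all values (5.20) in at least 1 library, and 38 of these spanned at least 2-fold. Of all 22180 genes, 14579 reached that median and 7182 of those had such a span. The highest library was iPS for 6 of these 38, a culture for 15 and a heart-derived library for 17. Among all 7182 genes with such a span, 34.4% were highest in iPS cells, 31.2% in a culture and 34.4% in a heart-derived library.

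**Figure D1:**
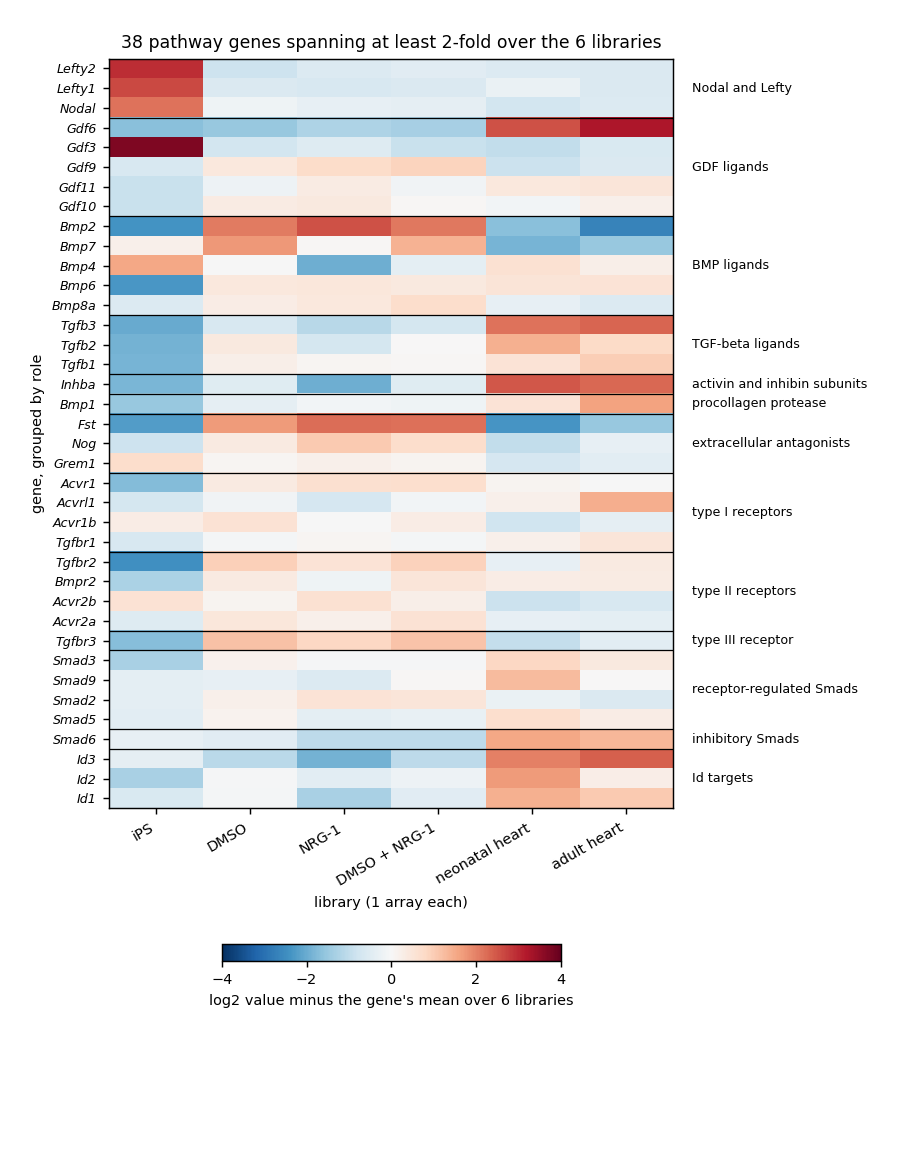
Log2 values of the 38 members that spanned at least 2-fold, each minus its own mean over the 6 libraries (colour), with genes as rows grouped by role and libraries as columns; "neonatal heart" and "adult heart" are the libraries labelled cardiomyocytes. Nodal, Lefty1, Lefty2 and Gdf3 stand out in iPS cells, Bmp2 and Fst in the 3 cultures, and Gdf6, Tgfb3, Inhba and Id3 in the heart-derived libraries.

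Promoter sequences are shown for members of some of the patterns described below. Nodal was high in iPS cells, Id3 was high in the heart-derived libraries, and Bmp4, Inhba and Tgfb2 were lower with NRG-1 alone than with DMSO. Each is the 250 bases before the annotated start, 5′ to 3′, from RefSeq on GRCm38.p6. Capitals mark CAGAC (a short Smad motif) and TATAAA (the letters of the TATA box), on either strand and at any distance from the start. A mark is a match of letters only, and whether it works as a TATA box or Smad site was not tested.
Nodal (chr10:61417722-61417971, plus strand): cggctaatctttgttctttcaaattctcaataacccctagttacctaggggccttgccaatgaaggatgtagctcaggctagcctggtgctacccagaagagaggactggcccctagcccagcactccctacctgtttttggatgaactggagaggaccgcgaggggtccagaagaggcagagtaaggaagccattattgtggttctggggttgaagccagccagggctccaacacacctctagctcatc
Id3 (chr4:136143572-136143821, plus strand): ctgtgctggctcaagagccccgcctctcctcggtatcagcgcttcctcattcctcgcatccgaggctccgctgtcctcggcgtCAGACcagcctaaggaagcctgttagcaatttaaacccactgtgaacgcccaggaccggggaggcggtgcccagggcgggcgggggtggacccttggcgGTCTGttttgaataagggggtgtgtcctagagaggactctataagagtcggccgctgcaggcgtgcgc
Bmp4 (chr14:46390670-46390919, minus strand): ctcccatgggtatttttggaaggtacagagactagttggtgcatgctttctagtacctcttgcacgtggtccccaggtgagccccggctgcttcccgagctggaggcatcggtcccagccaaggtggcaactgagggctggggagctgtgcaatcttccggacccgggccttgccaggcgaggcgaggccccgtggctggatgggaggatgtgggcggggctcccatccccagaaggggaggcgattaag
Inhba (chr13:16011601-16011850, plus strand): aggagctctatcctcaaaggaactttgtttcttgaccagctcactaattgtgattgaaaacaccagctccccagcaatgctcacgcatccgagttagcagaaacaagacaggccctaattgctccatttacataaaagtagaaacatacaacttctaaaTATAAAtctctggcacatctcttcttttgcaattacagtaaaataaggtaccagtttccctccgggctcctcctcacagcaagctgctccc
Tgfb2 (chr1:186705990-186706239, minus strand): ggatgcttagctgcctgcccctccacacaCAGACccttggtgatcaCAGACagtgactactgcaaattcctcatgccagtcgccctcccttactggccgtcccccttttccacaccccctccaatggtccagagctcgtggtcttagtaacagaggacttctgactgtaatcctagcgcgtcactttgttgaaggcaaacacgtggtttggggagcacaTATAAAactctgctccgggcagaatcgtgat
Both strands of the 45 windows of 39 member genes with an entry were searched. Bmp2, Bmp7, Fst and Tgfbr3, which were higher in the cultures than in the heart-derived libraries, had no entry. Neither had Gdf3, Gdf6, Id1, Lefty1, Lefty2 and Tgfb3, so the shares below leave out these members. The letters were CAGAC, the GC-rich Smad motif GGCGCC, the Smad palindrome GTCTAGAC, the FoxH1 motif as AATCCACA or as AATACACA, the AP-1 motif TGACTCA and the TATA box TATAAA. None of these motifs contains another. The Id3 window held CAGAC on the plus strand, beginning 167 bases before the start, and on the minus strand at 68 bases. That of Tgfb2 held it at 221 and 204 bases, with TATAAA at 31 bases, and that of Inhba held TATAAA at 91 bases. The Bmp4 and Nodal windows held none of these letters. CAGAC was in 18 of the 45 member windows (40%) and in 42.2% of all 32851 windows. The GC-rich motif GGCGCC was in 9 member windows (20%), those of Bmpr1a, Bmpr2, Chrd, Grem1, Id2, Id4, Smad5, Smad9 and Tgfbr1, and in 9.59% of all windows. These 9 windows were 62.8% to 78.8% G and C, against a median of 52.4% over all windows. The part of base content in the share of this all-G and C motif was not tested. TATAAA was in 13.3% and 12.4%. Among members the FoxH1 motif AATCCACA was in the window of Inhbc alone, and in 0.718% of all windows. The Smad palindrome, the other FoxH1 motif and the AP-1 motif were in no member window and in 0.167%, 0.895% and 4.46% of all windows. G and C made up 62.8% of the Id3 window, 63.2% of that of Bmp4 and 43.2% of that of Inhba, against a median of 52.4% over all windows.

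Nodal signalling genes formed the clearest group of high values in iPS cells. Nodal, Lefty1, Lefty2 and Gdf3 were each at least 2-fold higher there than in any of the 5 other libraries, 4 of 49 members that passed the filter, where the same held for 5.08% of all genes. Nodal, the ligand, was 7.75 in iPS cells, 5.41 with DMSO, 5.24 with NRG-1, 5.22 with both, 4.84 in the neonatal and 5.04 in the adult library. Lefty1, a secreted inhibitor of Nodal that Nodal itself induces, was 8.38 in iPS cells and between 5.10 and 5.49 in the others. Its close relative Lefty2 was 7.74 against 3.96 to 4.33. The iPS value of each gene stands alone, and the 5 others lie close together. Lefty1 and Lefty2 are similar in sequence, and how far their probes cross-hybridise was not tested. Gdf3, a Nodal-like ligand of pluripotent cells, had the widest gap, with 9.0 in iPS cells and 4.30 to 4.76 elsewhere, so that iPS cells stood 18.9-fold above the next library.

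A list of co-receptors that are not members had 6 measured genes, among them the receptor Amhr2 and Bambi, a receptor-like inhibitor. Of these, 1, 0 and 2 were at least 2-fold above iPS cells with DMSO, NRG-1 and both, and 2 were below in each culture. In the neonatal and adult libraries 2 and 1 were above and 1 was below in each. Tdgf1 (Cripto), the co-receptor Nodal needs, was 11.95 in iPS cells, 6.57 with DMSO, 5.50 with NRG-1, 6.02 with both, and 3.85 and 4.26 in the neonatal and adult libraries. Cfc1 (Cryptic), a related co-receptor, was 5.38 in iPS cells and 5.21 to 5.46 elsewhere. Foxh1, a DNA-binding partner of Smad2 and Smad3, was 7.10 in iPS cells and 4.70 to 5.36 elsewhere. Of 4 measured Nodal target genes of the gastrulating embryo (Eomes, Gsc, Mixl1 and Mesp1), 0 were at least 2-fold apart between any culture and iPS cells. Gsc was between 6.20 and 6.80 in all libraries, and the 3 others were under the median of all values throughout. Pluripotency markers had a mean level of 9.82 in iPS cells and 4.75 to 5.58 in the others.

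**Figure D2:**
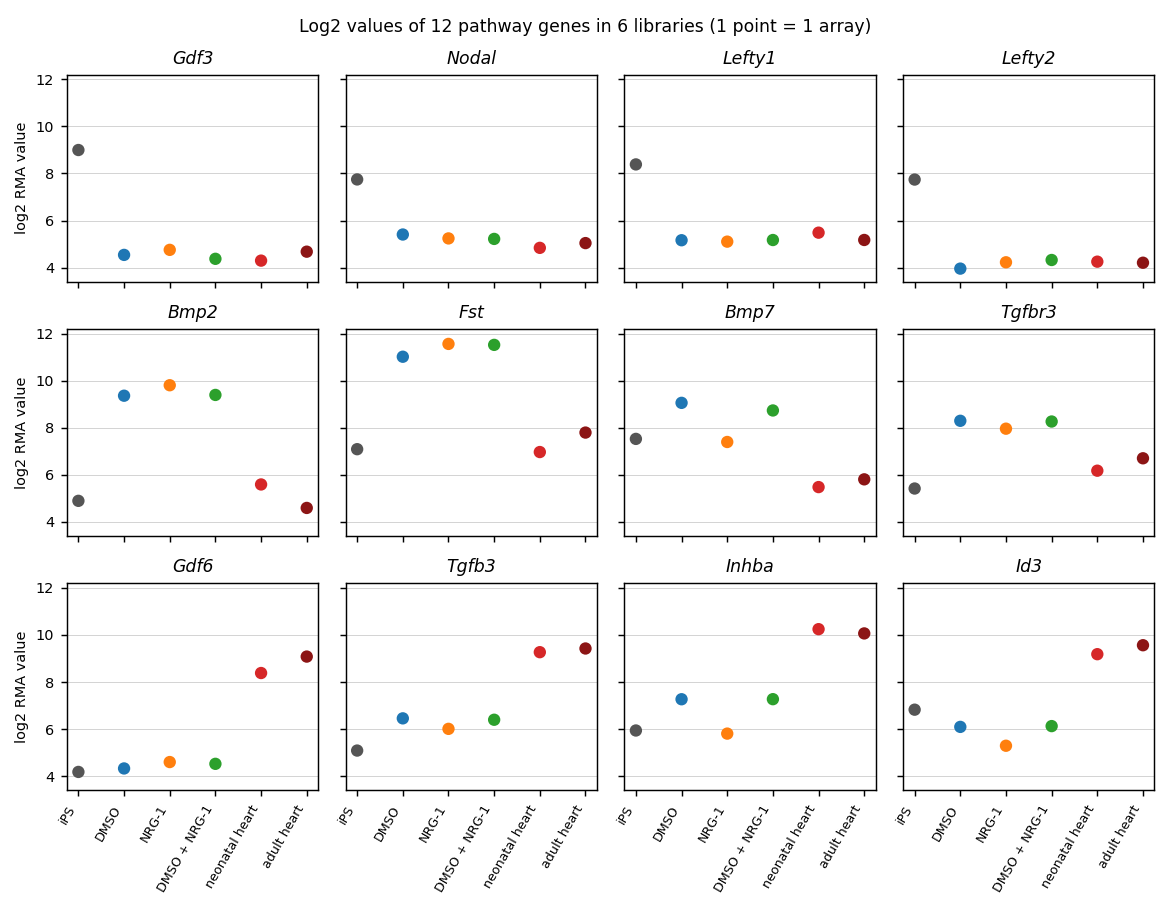
Log2 RMA values (vertical axis) of 12 members in the 6 libraries (horizontal axis), each point 1 array. The top row is highest in iPS cells; in the middle row all 3 cultures lie at least 2-fold above both heart-derived libraries, and in the bottom row at least 2-fold below them.

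The cultures were set against iPS cells to describe what differs after differentiation with each agent. With DMSO, 18 of 47 members passing the filter were at least 2-fold higher than in iPS cells and 5 lower, beside 13.1% and 13.3% of all genes. With NRG-1 alone 15 of 47 were higher and 6 lower, beside 11.3% and 14.5%. With both, 19 of 46 were higher and 5 lower, beside 13% and 13.1%. Shares of higher members were thus above those of all genes in each culture (38.3%, 31.9% and 41.3%), while those of lower members were 10.6%, 12.8% and 10.9%. These comparisons share the iPS library and are not independent. At least 4-fold higher were 8, 6 and 6 members with DMSO, NRG-1 and both, beside 3.6%, 2.96% and 3.66% of all genes. The median difference over all 58 members was 0.56, 0.30 and 0.37, and over all genes it was -0.0023, -0.0020 and -0.02.

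**Figure D3:**
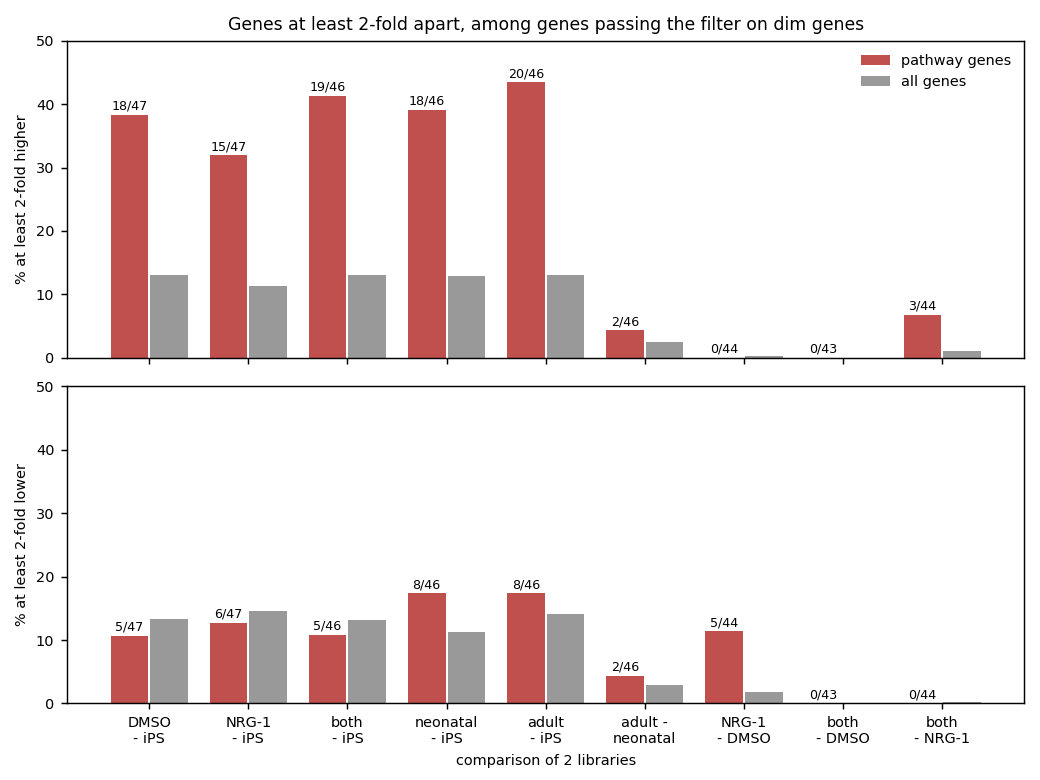
Percent of genes at least 2-fold higher (top) or lower (bottom) in 9 comparisons of 2 libraries, for pathway members (red, with their count over the members passing the filter) and all genes (grey). In the 5 comparisons with iPS cells 31.9% to 43.5% of members were higher, against 11.3% to 13.1% of all genes.

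Among the ligands, Bmp2 was the member with the widest span. Bmp2, a BMP that acts in early heart formation, was 4.90 in iPS cells, 9.36 with DMSO, 9.81 with NRG-1 and 9.39 with both, but 5.59 in the neonatal and 4.60 in the adult library. The lowest culture was 13.6-fold above the higher heart-derived library. Bmp4, which promotes mesoderm and supports self-renewal of mouse stem cells, went the other way. It was 9.54 in iPS cells, 7.99 with DMSO, 6.04 with NRG-1, 7.61 with both, 8.60 in the neonatal and 8.24 in the adult library. Its highest value was that of iPS cells and its lowest that of the NRG-1 culture. Bmp6 was 5.33 in iPS cells and between 8.04 and 8.22 in all others. Bmp7 was 7.53 in iPS cells, 9.06 with DMSO, 7.40 with NRG-1, 8.73 with both, 5.48 in the neonatal and 5.81 in the adult library, so the NRG-1 culture was near iPS cells. Bmp8a was 4.98 in iPS cells and in the adult library, 5.22 in the neonatal one and 5.83 to 6.23 in the cultures. The other BMP ligands, Bmp3, Bmp5, Bmp8b, Bmp10 and Bmp15, either spanned less than 2-fold or stayed under the median of all values. Bmp10, a ligand of embryonic heart muscle, was highest in the neonatal library at 5.04, which is under that median.

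The GDF ligands had no common pattern. Gdf6 was 4.18 in iPS cells and 4.33 to 4.60 in the cultures, but 8.38 in the neonatal and 9.08 in the adult library. Gdf9, known as an oocyte factor, was 5.18 in iPS cells, 6.27, 6.58 and 6.74 with DMSO, NRG-1 and both, and 4.98 and 5.27 in the heart-derived libraries. Gdf11 was lowest in iPS cells (5.65) and highest in the adult library (7.04). Gdf10 was 5.04 in iPS cells and 5.83 to 6.33 elsewhere. Gdf2, Gdf5 and Gdf7 differed by less than 2-fold over the 6 libraries. Gdf1 was measured only by a probe set that also names Cers1 and was not counted, and Gdf15 was not analysed here.

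TGF-beta ligands were lowest in iPS cells and highest in the heart-derived libraries. Tgfb1 was 6.50 in iPS cells, 8.61, 8.45 and 8.42 with DMSO, NRG-1 and both, 8.91 in the neonatal and 9.34 in the adult library. Tgfb2 was 5.82 in iPS cells, 8.09 with DMSO, 7.0 with NRG-1, 7.72 with both, 9.12 in the neonatal and 8.47 in the adult library. Tgfb3 was 5.09 in iPS cells, 6.01 to 6.46 in the cultures, 9.27 in the neonatal and 9.43 in the adult library. Of the 3, each was at least 2-fold above iPS cells in every other library, except Tgfb3 with NRG-1 (0.92).

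Inhba, which encodes the subunit of activin A, was 5.94 in iPS cells, 7.27 with DMSO, 5.81 with NRG-1, 7.27 with both, 10.25 in the neonatal and 10.07 in the adult library. It was the activin or inhibin subunit that spanned the most. Inhbb ranged from 6.17 to 7.13 and was highest in the adult library, Inha ranged from 5.65 to 6.26, and Inhbc and Inhbe stayed under the median of all values. Bmp1, a protease that trims procollagen and frees BMPs from chordin rather than a ligand, was 6.96 in iPS cells, 8.12 to 8.37 in the cultures, 9.02 in the neonatal and 10.08 in the adult library.

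Secreted antagonists were led by Fst. Fst (follistatin), which binds activins and some BMPs, was 7.09 in iPS cells, 11.02 with DMSO, 11.56 with NRG-1, 11.52 with both, 6.97 in the neonatal and 7.80 in the adult library. The cultures stood at least 9.32-fold above the heart-derived libraries. Nog (noggin), which binds BMPs, was 4.82 in iPS cells, 6.01, 6.69 and 6.35 with DMSO, NRG-1 and both, and 4.66 and 5.31 in the neonatal and adult libraries. Grem1, another BMP antagonist, was highest in iPS cells (6.48), 5.85 to 6.01 in the cultures and 5.12 and 5.36 in the heart-derived libraries. Chrd (chordin) ranged only from 4.93 to 5.43. Of 9 further antagonists that are not members, 6 passed the filter in each comparison with iPS cells. Of these, 1, 1 and 2 were at least 2-fold higher with DMSO, NRG-1 and both, beside 13.1%, 11.3% and 13% of all genes. In each heart-derived library 3 were higher, beside 13% (neonatal) and 13.1% (adult) of all genes. In no comparison with iPS cells was any at least 2-fold lower. Fstl1 was 8.81 in iPS cells, 8.63 to 9.32 in the cultures, and 11.67 and 12.08 in the neonatal and adult libraries. Bmper, a binder of BMPs in vessels, was 5.36, 6.29 to 6.50, 8.34 and 8.69 in the same order.

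Among the receptors of TGF-beta, Tgfbr2 and Tgfbr3 were more than 4-fold above iPS cells in each culture, and Tgfbr1 was less than 2-fold above. Tgfbr2, the type II receptor of TGF-beta, was 5.39 in iPS cells, 8.83 with DMSO, 8.40 with NRG-1, 8.79 with both, 7.53 in the neonatal and 8.22 in the adult library. Tgfbr3 (betaglycan), which presents TGF-beta 2 and inhibin, was 5.42 in iPS cells, 7.96 to 8.30 in the cultures, and 6.18 and 6.70 in the neonatal and adult libraries. Tgfbr1, the type I partner, was 6.72 in iPS cells, 7.31, 7.45 and 7.30 with DMSO, NRG-1 and both, 7.57 in the neonatal and 7.86 in the adult library. Acvr1, a type I receptor for BMPs, was 5.88 in iPS cells and 7.60 to 8.29 in all others. Bmpr2, the type II BMP receptor, was 8.95 in iPS cells and 10.06 to 10.70 in the others. A further probe set shared by Bmpr2 and Gm20272, not counted here, was likewise lowest in iPS cells (6.62) and 8.06 to 8.60 elsewhere.

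The remaining receptors had no common pattern. Acvrl1, a receptor for Gdf2 and Bmp10 best known in endothelium, was 5.64 in iPS cells, 5.70 to 6.23 in the cultures, 6.55 in the neonatal and 7.81 in the adult library. Eng (endoglin), its co-receptor and not a member, was 8.74 in iPS cells, 5.76 to 6.22 in the cultures, and 10.70 and 10.92 in the neonatal and adult libraries. The mean of 5 endothelial markers was 6.17 in the neonatal and 6.75 in the adult library and 6.19 to 6.32 in the others. The activin receptors Acvr1b and Acvr2b were lower in the heart-derived libraries. Acvr1b was 7.49 in iPS cells and 6.37 and 6.80 there, and Acvr2b was 6.57 in iPS cells and 5.13 and 5.32 there. Acvr2a was 7.25 in iPS cells, 7.96 to 8.35 in the cultures and 7.43 and 7.36 in the neonatal and adult libraries. Bmpr1a, the widely used type I BMP receptor, ranged only from 7.74 to 8.41, and Bmpr1b and Acvr1c stayed under the median of all values.

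Of the 8 Smads, 5 spanned at least 2-fold over the 6 libraries, beside 7182 of the 14579 genes that reached the median of all values. Smad3 was 6.40 in iPS cells, 7.68 to 7.90 in the cultures, 8.53 in the neonatal and 8.10 in the adult library. Smad2, its partner, was highest in the NRG-1 culture (9.52) and lowest in the adult library (8.41). Of the BMP Smads, Smad5 was 6.63 in iPS cells, 6.67 to 7.18 in the cultures, and 7.73 and 7.33 in the neonatal and adult libraries. Smad9 was 6.38 in the neonatal library and 4.57 to 5.17 in the others, and Smad1 spanned only 0.75. The common Smad4 ranged from 9.35 to 10.22 and was higher in each culture than in the 3 other libraries. Smad6, an inhibitory Smad that BMP signalling induces, was 6.12 in iPS cells, 6.0 with DMSO, 5.42 with NRG-1, 5.42 with both, 8.02 in the neonatal and 7.77 in the adult library. Smad7, the other inhibitory Smad, ranged from 6.84 to 7.66.

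Id1, Id2 and Id3 encode inhibitors of basic helix-loop-helix factors and are direct targets of BMP signalling. They were highest in the heart-derived libraries. Id1 was 6.66 in iPS cells, 7.19 with DMSO, 5.98 with NRG-1, 6.81 with both, 8.69 in the neonatal and 8.32 in the adult library. Id3 was 6.83 in iPS cells, 6.10, 5.30 and 6.13 with DMSO, NRG-1 and both, and 9.18 and 9.56 in the neonatal and adult libraries. All 3 cultures were below iPS cells for Id3, and both heart-derived libraries were above. Id2 was 7.77 in iPS cells, 8.66 to 9.03 in the cultures, 10.76 in the neonatal and 9.33 in the adult library. Id4 spanned less than 2-fold (5.90 to 6.88). Of 6 further BMP target genes, Tbx3 was 9.33 in iPS cells and 5.97 to 7.48 elsewhere, Atoh8 was 7.17 and 6.88 in the neonatal and adult libraries and 5.42 to 5.72 elsewhere, and Msx2 was 6.03 to 6.18 in the cultures and 4.93 to 5.06 elsewhere. Within this list 1 gene was at least 2-fold above and 1 below iPS cells in each of the 5 comparisons.

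The heart-derived libraries were then set against iPS cells. Of 46 members passing the filter in each, 18 were at least 2-fold higher and 8 lower in the neonatal library, beside 13% and 11.2% of all genes. In the adult library 20 were higher and 8 lower, beside 13.1% and 14.1%. At least 4-fold higher were 12 and 10 members, beside 4.51% and 4.6% of all genes. Gdf6, Tgfb3, Inhba and Tgfb2 exceeded iPS cells by the most in the neonatal library (4.20, 4.18, 4.30 and 3.30), and Gdf6, Tgfb3, Inhba and Bmp1 in the adult one (4.90, 4.33, 4.12 and 3.13). A list of 11 measured genes for ligand latency and processing showed the same direction. Of these, 11 and 10 passed the filter in the neonatal and adult libraries. In each library 6 were at least 2-fold higher and 0 lower. The list took in the whole Ltbp family, Ltbp2 included, and proteases such as Tll1, which are not all known to act on TGF-beta. Lrrc32, which tethers latent TGF-beta at the cell surface, was 5.48 in iPS cells, 6.20 to 7.14 in the cultures, and 11.78 and 12.10 in the neonatal and adult libraries. Ltbp2 was 5.38 in iPS cells, 5.48 to 5.62 in the cultures, 8.28 in the neonatal and 10.16 in the adult library. Of 7 measured TGF-beta target genes, 5 were higher in each and 0 lower, among them the collagens Col1a1 and Col1a2. Thbs1 (thrombospondin 1), which can activate latent TGF-beta, was 8.42 in iPS cells, 12.22, 11.07 and 12.10 with DMSO, NRG-1 and both, and 12.71 and 12.62 in the neonatal and adult libraries. The fibroblast marker values above moved with these genes, and Col1a1 is on both lists. Smooth muscle markers moved with them too: 3 of 4 were at least 2-fold above iPS cells in each heart-derived library, with a mean of 8.11 in iPS cells, 8.70 to 8.95 in the cultures, and 10.2 and 10.4 in the neonatal and adult libraries. Of 5 macrophage markers the mean was 5.64 in iPS cells, 6.52 to 6.69 in the cultures, and 5.92 and 6.97 in the neonatal and adult libraries. Their part in these differences was not tested.

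In all 5 libraries other than iPS, 8 of 49 members were at least 2-fold above it, beside 3.54% of all genes. They were the ligands Bmp6, Tgfb1 and Tgfb2, the receptors Acvr1, Bmpr2 and Tgfbr2, the protease Bmp1, and Smad3. The lowest of the 5 libraries stood 6.52-fold above iPS cells for Bmp6, 4.40-fold for Tgfbr2 and 3.78-fold for Tgfb1.

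Direct comparison of the cultures with the heart-derived libraries asked which members separate them. All 3 cultures were at least 2-fold above both heart-derived libraries for 4 of 47 members passing the filter, and below them for 6, beside 4.64% and 4.71% of all genes. Those above were Bmp2, Fst, Bmp7 (a gap of 3.0-fold) and Tgfbr3 (2.39-fold). Those below were Gdf6 (13.7-fold), Id3 (8.30-fold), Tgfb3 (7.01-fold), Inhba (6.93-fold), Smad6 (3.41-fold) and Id1 (2.19-fold). Inhba and its binder Fst lay on opposite sides. BMP ligands and targets were not split by side. Bmp2 and Bmp7 were above, whereas Gdf6 was below with the BMP targets Id1, Id3 and Smad6. Bmp4 was lower in the cultures (6.04 to 7.99) than in the neonatal (8.60) and adult (8.24) libraries. Only the NRG-1 culture (6.04) was at least 2-fold below both, and the DMSO culture (7.99) was close to the adult library. The BMP target Msx2 was higher in the cultures (6.03 to 6.18) than in those libraries (5.06 and 5.01), and Atoh8 was lower. The libraries of each side are different conditions and not replicates.

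Between the heart-derived libraries few members differed. Of 46 passing the filter, 2 were at least 2-fold higher and 2 lower in the adult library, beside 2.52% and 2.92% of all genes, and 0 were 4-fold higher or lower, beside 0.372% and 0.311%. Acvrl1 (1.26) and Bmp1 (1.07) were higher in the adult library, while Id2 (-1.42) and Smad9 (-1.24) were lower. Bmp2 differed by -0.997, just under 2-fold. The adult library was also higher by 0.96 for Inhbb.

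NRG-1 alone and DMSO alone were compared to ask how the agents differ. Of 44 members passing the filter, 5 were at least 2-fold lower with NRG-1 and 0 higher, beside 1.78% and 0.36% of all genes. Bmp4 was lower by 3.87-fold (a difference of -1.95), Bmp7 by 3.16-fold (-1.66), Inhba by 2.75-fold (-1.46), Id1 by 2.31-fold (-1.21) and Tgfb2 by 2.12-fold (-1.09). With a shift of the libraries to equal housekeeping medians, which put the median of all genes at 0.24 in this comparison, 3 members were lower. The next largest differences were those of Id3 (-0.80), Nog (0.68) and Gdf7 (0.62). Of the 4 Id genes 1, Id1, was at least 2-fold lower; Id2 and Id4 differed by -0.37 and -0.60. Of the 4 antagonists 0 were 2-fold apart, Fst, Chrd and Grem1 differing by 0.54, 0.30 and 0.15. Of the other pathway genes, 4 of 44 passing the filter were at least 2-fold lower with NRG-1 and 0 higher: Fstl3 (-1.26), Thbs1 (-1.16), Tgfbi (-1.13) and Tdgf1 (-1.06). Mean marker levels also differed, with fibroblast markers at 9.43 with DMSO and 8.87 with NRG-1, cardiomyocyte markers at 7.25 and 6.76, and yolk sac endoderm markers at 9.27 and 9.74. Their part in these differences was not tested.

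**Figure D4:**
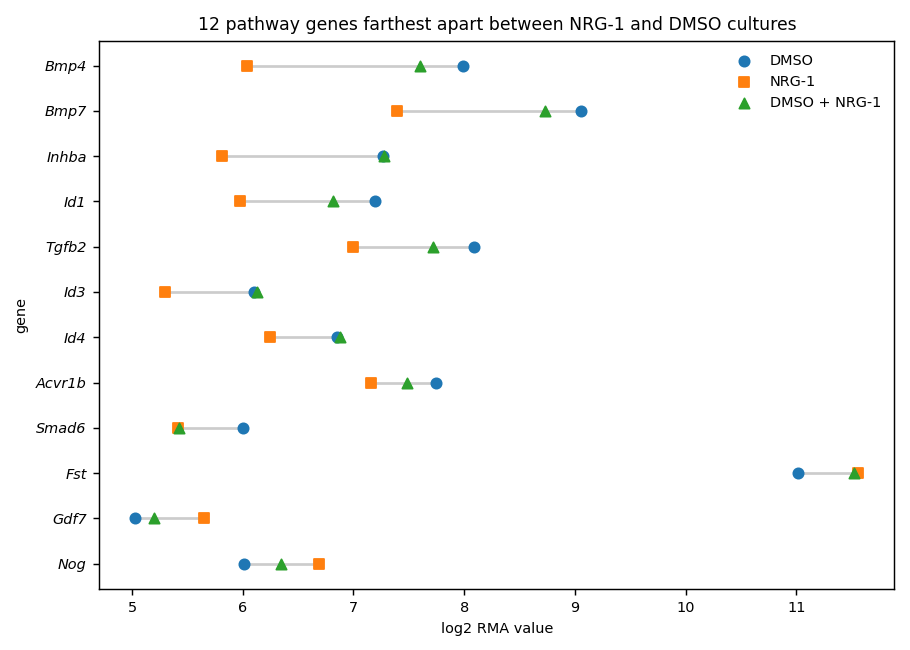
Log2 RMA values (horizontal axis) in the DMSO (circles), NRG-1 (squares) and combined (triangles) cultures for the 12 members farthest apart between NRG-1 and DMSO. For Bmp4, Bmp7, Inhba, Id1 and Tgfb2 the combined culture lies nearer to DMSO, and for Smad6 and Fst nearer to NRG-1.

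With NRG-1 added to DMSO, the members were close to their values with DMSO alone, as were nearly all genes. Of 43 passing the filter, 0 were at least 2-fold higher or lower in the combined culture than with DMSO, beside 0.0455% and 0.053% of all genes. The differences ranged from -0.58 for Smad6 to 0.50 for Fst. Against NRG-1 alone, 3 of 44 members were at least 2-fold higher in the combined culture and 0 lower, beside 1.08% and 0.293% of all genes. They were Bmp4 (1.57), Inhba (1.46) and Bmp7 (1.34). All 5 members that were 2-fold apart between the single agents lay nearer to DMSO than to NRG-1 in the combined culture, as did 92.3% of all 286 such genes. Inhba was at 7.27 in both libraries that received DMSO, whereas Smad6 was at 5.42 in both that received NRG-1. Fibroblast markers had a mean of 9.31 and cardiomyocyte markers of 7.33 in the combined culture, also nearer to DMSO.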

How the data were processed

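The authors deposited 1 table of log2 values for 41345 probe sets, normalized with RMA per the submitters' processing notes. Which software ran it is not given in the sources used here. Sense cDNA was prepared from 300 ng RNA, per the labels' protocols. That the scale is log2 follows from the range of the values. RMA made the value distributions of the 6 arrays nearly equal (at most 0.285 apart at any rank), which hides shifts shared by most genes. Background and detection values were not used here, and precision is limited by having 1 array per group.

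The platform annotation lists 25335 probe sets, 23521 with 1 gene and 1814 with several; only the former were used. A gene took the mean of its probe sets, and 57 of the 58 members have 1. Counts include genes whose highest value among the libraries compared reached the median of all values (5.20), and their threshold was 2-fold. No test was run. Alternatives were no filter, a filter at the 75th percentile (6.93), the brightest probe set, cyclic loess (limma 3.58.1) and a shift to equal medians of 9 housekeeping genes. Counting was checked on simulated data. Members that reached the median and spanned at least 2-fold were named in full, and up to 4 genes of each other list by span, besides a few chosen after their values were seen. Members and lists were chosen with earlier results of these data known.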

Additional observations from a re-analysis of the deposited data

Results flagged for a closer look

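Id3 differed from iPS cells in opposite directions, by at least 1.5-fold in each of the 3 cultures and both heart-derived libraries. The mean difference was -0.99 over the cultures (-0.73 with DMSO, -1.53 with NRG-1 and -0.70 with both) and 2.55 over the heart-derived libraries (2.36 neonatal and 2.74 adult). The difference was not tested, since each group has 1 library, and both sides share the iPS library. No other member met this rule.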

How the results depend on the processing

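Of 100 recounts of members (20 counts under 5 alternatives), the 20 with the brightest probe set could hardly change, since only Gdf5 has 2 probe sets. Of the 100, 98 stayed within 1.5 times the value given. The exceptions were members lower with NRG-1 than with DMSO, 3 with the housekeeping shift, and members lower in the adult library than in the neonatal one, 1 with the filter at the 75th percentile. With 1 library left out, members with the cultures above the heart-derived libraries numbered 4 to 6, and those below 6 to 9. All 134 differences of at least 2-fold for the 38 members moved by less than 1.5-fold and kept their sign under cyclic loess. The same held under the brightest probe set and the housekeeping shift, but neither could have shown otherwise. Each of the 38 has 1 probe set. The housekeeping shifts, from -0.147 to 0.109 per library, are too small to move a difference by 1.5-fold. No paired analysis was possible because each group has 1 library. Signal over background could not be judged, so low values may hold little signal.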
